A study of Mus musculus with 12 samples.

Results

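The 10 genes described here encode the transcription factors that set up and hold the identity of group 2 innate lymphoid cells (ILC2s): *Gata3*, *Rora*, *Tcf7*, *Bcl11b*, *Gfi1*, *Id2*, *Id3*, *Ets1*, *Tox* and *Zbtb16*. They were chosen by name, as known factors of this lineage, from the 24346 gene symbols in the files, and all 10 were found. ILC2s are tissue lymphocytes without rearranged antigen receptors that answer alarmins such as IL-33 with type 2 cytokines. They arise from lymphoid progenitors that first express the HMG-box proteins TOX and TCF-1 and the E protein inhibitor ID2, pass through a stage marked by PLZF, the product of *Zbtb16*, and then depend on GATA3, RORα, BCL11B and GFI1. ID proteins bind E proteins, the basic helix-loop-helix factors that otherwise favour B and T cell programmes, and keep them from DNA.

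The libraries were made from CD45+ Lin- Thy1.2+ ST2+ cells sorted from the lungs of C57BL/6 mice (C57BL/6J in the methods). The lineage (Lin) antibodies that the methods list for ILC2s include NK1.1, F4/80, CD11c and Gr-1, and also CD3ε, CD4, CD5 and CD8α. The 4 groups were wild-type (WT) mice given PBS, WT mice given IL-33, mice lacking *Sema6d* in all tissues (*Sema6d*-/-, 6DKO in the labels) given PBS, and *Sema6d*-/- mice given IL-33, with 3 libraries in each. PBS or IL-33 was given into the nose for 3 days, and the mice of the study were 7 to 12 weeks old. The sources give the IL-33 dose as 50 ng (sample labels) and as 500 ng (methods). The labels do not say whether each library came from a separate mouse, so the p-values measure the spread between samples.

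The deposited values are FPKM, read counts scaled for transcript length and library size. They are set side by side here between genes and between libraries. The scaling does not remove differences in RNA composition between libraries, and the FPKM summed to between 701590 and 819330 per library. Read totals are not given. The size of the step between the smallest values put relative depth, with WT IL-33 replicate 3 set to 1, at 0.740 to 0.891 in WT PBS, 0.843 to 0.9996 in *Sema6d*-/- PBS, 1 to 1.39 in WT IL-33 and 0.967 to 1.12 in *Sema6d*-/- IL-33 libraries. The PBS libraries also listed more genes at 0. Of 1808 genes with a mean of 10 to 20 FPKM in the PBS libraries themselves, the number listed at 0 was 37 to 191 in single PBS libraries but 10 to 20 in single IL-33 libraries. A 0 is therefore given only as listed. Pearson's r between replicates, taken across genes, ran from 0.761 to 0.818 for PBS and from 0.934 to 0.950 for IL-33, and genes are not independent replicates.

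Tests were made with limma on log2(FPKM + 1) for the 11395 genes averaging 0.5 FPKM or more, a minimum that all 10 factors passed, and a gene was called at a Benjamini-Hochberg adjusted p under 0.05. All 4 groups share 1 estimate of the spread per gene, yet the median SD on the log2 scale was 0.66 and 0.70 in the WT and *Sema6d*-/- PBS groups and 0.29 and 0.28 in the corresponding IL-33 groups. The median of the shared estimate was 0.68, close to the medians of the PBS groups and above those of the IL-33 groups. By this arithmetic the p-values are too large between the IL-33 groups. Medians of SDs from only 3 libraries run low, so the closeness of 0.68 to the PBS medians does not show equal spread. The shared variance is the mean of the 4 group variances. Where a gene varied less under IL-33, it understates the spread of the PBS groups, and p-values between them are too small. With only the PBS groups in the fit, 520 genes in place of 1475 had an unadjusted p under 0.05. Fits of only the groups compared are therefore given beside the genotype comparisons.

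The markers used to sort the cells were present. *Il1rl1*, which encodes the ST2 chain of the IL-33 receptor, lay between 117 and 269 FPKM and *Thy1* between 22.2 and 78.7 FPKM. *Ptgdr2*, which encodes the prostaglandin receptor CRTH2, was listed at 0 in all 12 libraries. *Sema6d* itself was at 27.5, 46.1 and 37.5 FPKM in WT PBS and 29.0, 22.9 and 19.8 FPKM in *Sema6d*-/- PBS libraries. Under IL-33 it was at 19.7, 35.5 and 28.7 FPKM in WT and 15.4, 13.6 and 13.8 FPKM in *Sema6d*-/- libraries. The transcript was thus measured in every *Sema6d*-/- library, lower than in WT without overlap under IL-33 and with overlap under PBS.

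In all 4 groups the factors took the same order at the top. *Id2* had the highest median, 2027 to 3211 FPKM, which placed it at percentile 99.5 to 99.8 of the genes tested. *Gata3*, the zinc-finger factor on which ILC2 development and upkeep depend, followed with group medians of 347 to 466 FPKM, below *Id2* and above *Ets1* without overlap in any group. *Ets1*, a factor of the ETS family needed for ILC2 expansion, and *Rora*, which encodes the nuclear receptor RORα, came next with medians of 212 to 276 and 184 to 225 FPKM. Their values overlapped in each group, so these neighbours did not differ beyond their spread.

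The lower places changed with the group. In WT PBS libraries *Bcl11b*, *Id3*, *Tox*, *Tcf7* and *Gfi1* had medians of 28.1, 25.5, 20.6, 18.3 and 14.0 FPKM, and each overlapped its neighbour. Under IL-33 *Tcf7* and *Tox* held the fifth and sixth places, with medians of 56.8 and 45.6 FPKM in WT and 74.0 and 42.7 FPKM in *Sema6d*-/- ILC2s. *Zbtb16* was the lowest in every group but *Sema6d*-/- PBS, where the median of *Id3* was 0.

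**Figure D1:**
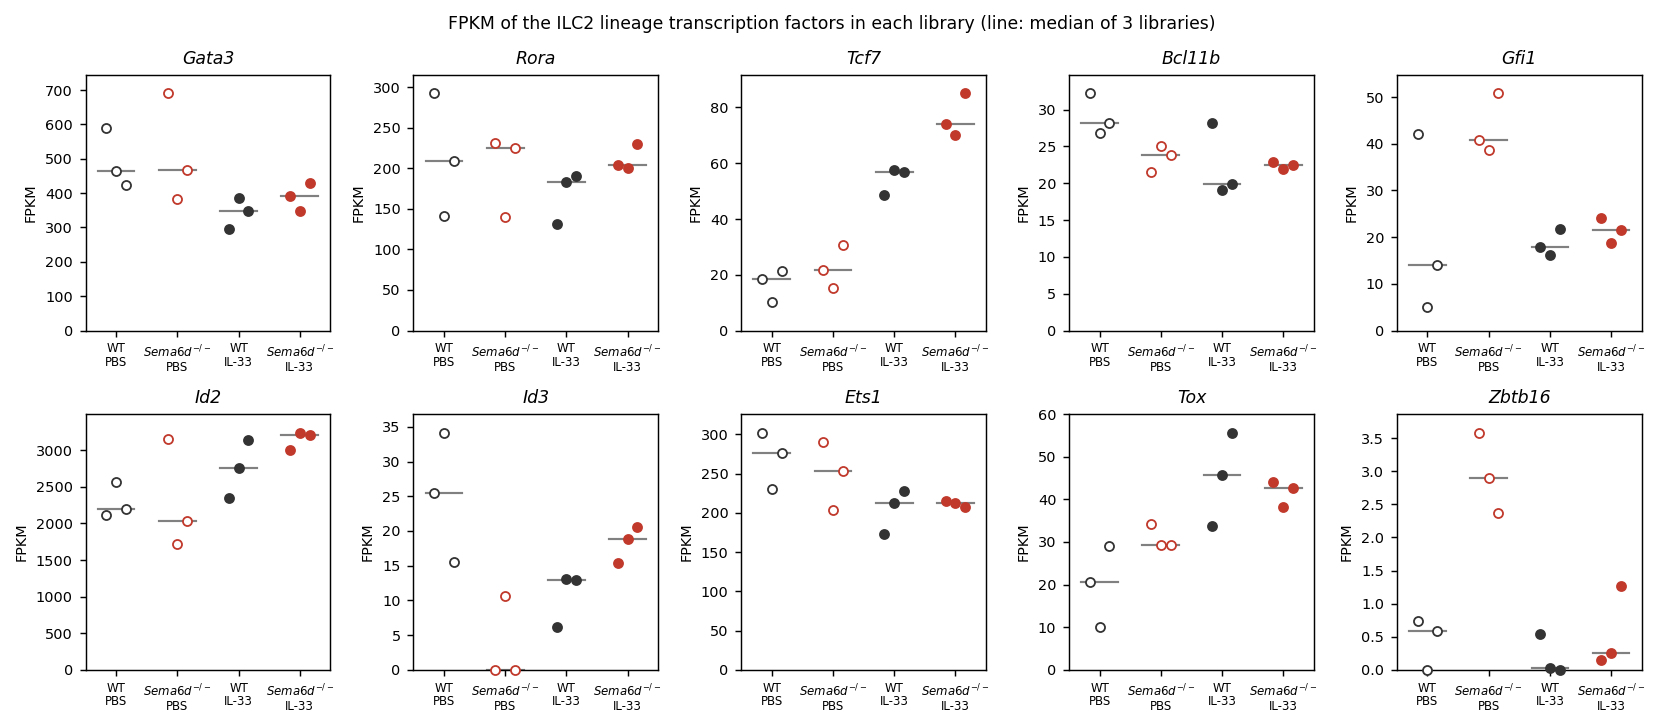
FPKM of each factor in each of the 12 libraries, on a linear axis from 0, with PBS as open and IL-33 as filled points, WT in grey and *Sema6d*-/- in red, and a line at the median of 3 libraries. *Tcf7* spans 10.2 to 30.5 FPKM under PBS and 48.7 to 85.0 FPKM under IL-33, while *Id3* is at 0 in 2 of the 3 *Sema6d*-/- PBS libraries.

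The comparison of IL-33 with PBS asks which of these factors moved as the lung ILC2s were activated. *Tcf7*, which encodes TCF-1, the HMG-box partner of β-catenin that acts early in T cell and ILC development, rose in both genotypes. In WT libraries it was at 18.3, 10.2 and 21.3 FPKM under PBS and 48.7, 57.6 and 56.8 FPKM under IL-33. In *Sema6d*-/- libraries it was at 21.6, 15.3 and 30.5 FPKM under PBS and 74.0, 70.3 and 85.0 FPKM under IL-33. Each of the 6 IL-33 libraries lay above all 6 PBS libraries. The group means differed 3.27-fold in WT and 3.40-fold in *Sema6d*-/- ILC2s. The log2 fold change was 1.71 in WT (standard error, SE, 0.32, adjusted p = 0.0120, limma) and 1.77 in *Sema6d*-/- ILC2s (SE 0.32, adjusted p = 0.0139, limma). Averaged over the genotypes it was 1.74 (SE 0.23, adjusted p = 0.000613, limma), and the two-sided exact permutation test within genotypes gave p = 0.005, the smallest that 400 assignments allow. In bulk RNA, a larger share of cells with *Tcf7* and more *Tcf7* RNA per cell cannot be told apart.

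*Lck*, a kinase of T cell receptor signalling and 1 of the 10 T cell markers measured, was higher under IL-33 in WT as well. It was at 70.2, 37.9 and 45.3 FPKM in WT PBS and 171, 148 and 205 FPKM in WT IL-33 libraries. In *Sema6d*-/- libraries its values overlapped, at 102, 93.6 and 39.6 FPKM under PBS and 94.9, 107 and 109 FPKM under IL-33. *Cd28*, a costimulatory receptor of T cells, was instead higher under IL-33 in *Sema6d*-/- libraries, at 1.34, 0.381 and 0.0894 FPKM under PBS and 5.69, 8.20 and 11.3 FPKM under IL-33, and overlapped in WT. The other 8 T cell markers overlapped between the treatments in both genotypes. Of the genes for surface proteins that the lineage antibodies bind on T cells, *Cd4* was listed at 0 in every library, and *Cd5* reached at most 0.311 FPKM, *Cd8a* 0.393 FPKM and *Cd3e* 9.81 FPKM. The summed T cell markers, of which *Cd3g* was the largest part, overlapped between PBS and IL-33 in both genotypes. The part of such cells in the *Tcf7* values was not tested.

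*Tcf7* was the 1 factor of 10 called in each of these comparisons, in each as higher. Among all genes tested, 4.27% were called in WT (2.66% as higher), 2.84% in *Sema6d*-/- ILC2s (1.75% as higher) and 8.82% in the average of both (5.75% as higher). The median log2 fold change of the 10 factors was −0.29 in WT and 0.03 in *Sema6d*-/- ILC2s, against 0.16 and 0.14 over all genes tested. No difference between the 2 responses of *Tcf7* was detected, with an interaction of 0.06 on the log2 scale (confidence interval −0.94 to 1.06, adjusted p = 0.990, limma). *Tcf7* lost its call within 1 genotype when single IL-33 libraries were left out, while the size of its change moved little. Without WT IL-33 replicate 2 or 3 the log2 fold change in WT was 1.66 or 1.67 (adjusted p = 0.0563 or 0.0569). Without *Sema6d*-/- IL-33 replicate 1, 2 or 3 it was 1.79, 1.83 or 1.69 in that genotype (adjusted p = 0.0562, 0.0545 or 0.0696). The loss was not particular to *Tcf7*. Over all genes tested, the same settings lowered the number called from 486 to 243 or 230 in WT. In *Sema6d*-/- ILC2s they lowered it from 324 to 137, 122 or 143. Over the alternatives the adjusted p of *Tcf7* ranged from 0.00791 to 0.0569 in WT, from 0.00623 to 0.0942 in *Sema6d*-/- ILC2s and from 0.000512 to 0.00552 in the average.

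*Tox*, the other HMG-box factor of the list and one needed for early ILC progenitors, was also higher in each IL-33 library than in any PBS library of its genotype. In WT libraries it was at 20.6, 10.04 and 29.0 FPKM under PBS and 33.7, 45.6 and 55.6 FPKM under IL-33. In *Sema6d*-/- libraries it was at 34.1, 29.3 and 29.3 FPKM under PBS and 44.0, 38.3 and 42.7 FPKM under IL-33. The PBS values were spread more widely in WT than in *Sema6d*-/- libraries, and the highest *Sema6d*-/- PBS value exceeded the lowest WT IL-33 value. The log2 fold change missed the threshold in WT (1.23, SE 0.35, adjusted p = 0.0792), in *Sema6d*-/- ILC2s (0.42, SE 0.35, adjusted p = 0.630) and in the average (0.82, SE 0.25, adjusted p = 0.0639). The exact permutation test of the average for this single gene gave p = 0.005. Without WT PBS replicate 3, the highest WT PBS value, the adjusted p fell to 0.0271 in WT and 0.0214 in the average, so the call depends on that library. The adjusted p ranged from 0.0271 to 0.280 in WT and from 0.0214 to 0.161 in the average over the alternatives.

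*Gata3* and *Ets1* had lower values under IL-33 in WT libraries. *Gata3* was at 590, 466 and 424 FPKM in WT PBS, 295, 386 and 347 FPKM in WT IL-33, 690, 382 and 466 FPKM in *Sema6d*-/- PBS and 391, 348 and 429 FPKM in *Sema6d*-/- IL-33 libraries. *Ets1* was at 302, 230 and 276 FPKM, 173, 212 and 228 FPKM, 290, 204 and 253 FPKM and 216, 212 and 207 FPKM in the same order of groups. For both genes the WT groups did not overlap and the *Sema6d*-/- groups did. Averaged over the genotypes, the log2 fold change was −0.44 for *Gata3* (SE 0.15, adjusted p = 0.0984, exact permutation p = 0.02) and −0.31 for *Ets1* (SE 0.12, adjusted p = 0.162, exact permutation p = 0.035). Neither passed over all genes tested. Without *Sema6d*-/- PBS replicate 2, the adjusted p of *Gata3* was 0.0378, within a range of 0.0378 to 0.253 over the alternatives.

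*Id2* stood at 2113, 2572 and 2200 FPKM in WT PBS and 2346, 2753 and 3136 FPKM in WT IL-33 libraries. In *Sema6d*-/- libraries it was at 3155, 1726 and 2027 FPKM under PBS and 3001, 3238 and 3211 FPKM under IL-33. PBS and IL-33 values overlapped in both genotypes. The averaged log2 fold change was 0.38 (SE 0.13, adjusted p = 0.108, exact permutation p = 0.03). It passed with quantile normalization (0.50, adjusted p = 0.0114) and without *Sema6d*-/- PBS replicate 1 (0.50, adjusted p = 0.00720), within adjusted p-values of 0.00720 to 0.314 over the alternatives. In *Sema6d*-/- ILC2s alone the change was 0.50 (SE 0.19, adjusted p = 0.222), and the same settings gave 0.65 and 0.75 (adjusted p = 0.0423 and 0.0201).

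Of the remaining factors, *Zbtb16* and *Gfi1* had lower values under IL-33 without overlap in *Sema6d*-/- libraries only, and no interaction was called for either. *Zbtb16*, which is switched off as ILC precursors mature, was at 3.58, 2.90 and 2.37 FPKM in *Sema6d*-/- PBS and 0.156, 0.257 and 1.27 FPKM in *Sema6d*-/- IL-33 libraries. In WT it was at 0.742, 0 and 0.590 FPKM under PBS and 0.537, 0.0226 and 0 FPKM under IL-33. The *Sema6d*-/- PBS libraries thus held the 3 highest of the 12 values, and the value of 0.0226 FPKM corresponds to about 1 read. The log2 fold change was −1.40 in *Sema6d*-/- ILC2s (SE 0.43, adjusted p = 0.125) and −0.27 in WT (SE 0.43, adjusted p = 0.810), with an interaction of −1.12 (SE 0.61, adjusted p = 0.897, exact permutation p = 0.155). The averaged change of −0.83 (adjusted p = 0.118) passed with quantile normalization (−1.24, adjusted p = 0.0262), the lowest adjusted p of a range up to 0.238.

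*Gfi1*, a zinc-finger repressor that keeps ILC2s responsive to IL-33, was at 40.8, 38.7 and 50.8 FPKM in *Sema6d*-/- PBS and 24.2, 18.8 and 21.5 FPKM in *Sema6d*-/- IL-33 libraries. In WT it was at 42.2, 5.001 and 14.0 FPKM under PBS and 18.0, 16.2 and 21.8 FPKM under IL-33. The WT PBS libraries reached both above and below all other WT values. The log2 fold change was −0.98 in *Sema6d*-/- ILC2s (SE 0.55, adjusted p = 0.440) and 0.31 in WT (SE 0.55, adjusted p = 0.834), and the latter was −0.38 without WT PBS replicate 2. The interaction was −1.29 (SE 0.78, adjusted p = 0.897, exact permutation p = 0.33).

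*Bcl11b* and *Rora* overlapped between PBS and IL-33 in both genotypes. *Bcl11b*, a zinc-finger factor that holds ILC2s to their fate, lay between 19.1 and 32.2 FPKM in all 12 libraries, with an averaged log2 fold change of −0.22 (SE 0.19, adjusted p = 0.538, exact permutation p = 0.09). *Rora* lay between 131 and 292 FPKM, with an averaged log2 fold change of −0.09 (confidence interval −0.52 to 0.34, adjusted p = 0.834, exact permutation p = 0.67).

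Counted over the list, PBS and IL-33 values did not overlap for 5 of the 10 factors in WT (*Gata3*, *Tcf7*, *Id3*, *Ets1* and *Tox*) and 5 in *Sema6d*-/- ILC2s (*Tcf7*, *Gfi1*, *Id3*, *Tox* and *Zbtb16*). Of all genes tested, 25.1% and 22.7% were without overlap in the same comparisons. For 3 libraries against 3 the exact permutation test cannot give a p below 0.10, so a gene without overlap is at that limit.

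**Figure D2:**
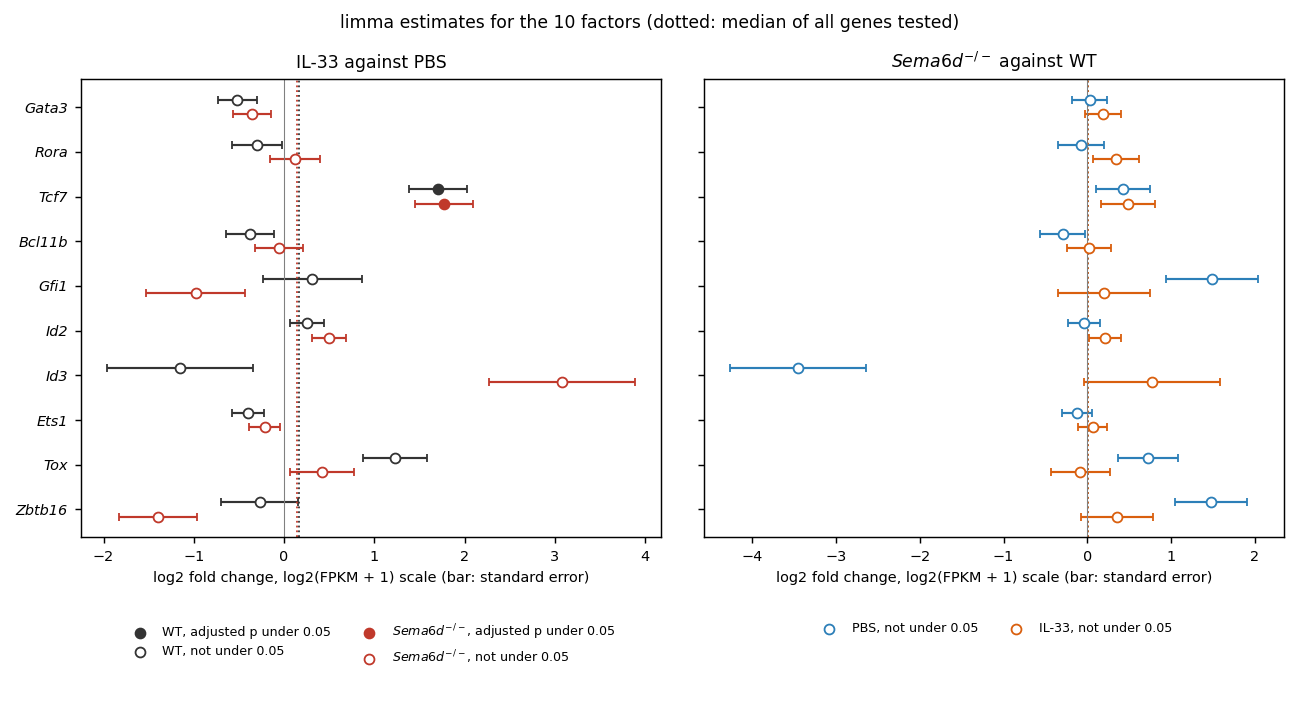
Log2 fold changes of the 10 factors from limma on the log2(FPKM + 1) scale, with bars for the standard error, filled points for an adjusted p under 0.05 and dotted lines at the median of all genes tested. Left, IL-33 against PBS, where *Tcf7* is the filled point at 1.71 in WT (grey) and 1.77 in *Sema6d*-/- ILC2s (red); right, *Sema6d*-/- against WT under PBS (blue) and IL-33 (orange), where no point is filled and *Id3* under PBS lies at −3.46.

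The comparison of the genotypes asks whether loss of *Sema6d* moves the lineage factors. Under IL-33 limma called 0 of the 10 factors, 0 had an unadjusted p under 0.05, and of all genes tested 0.00878% were called and 1.83% had an unadjusted p under 0.05. *Rora*, *Tcf7* and *Id3* were higher in every *Sema6d*-/- than in every WT library, 3 of the 10 factors, where 14.2% of all genes were without overlap in either direction. The *Rora* values were 131, 184 and 191 FPKM in WT and 204, 201 and 230 FPKM in *Sema6d*-/- libraries, and the lowest *Sema6d*-/- value stood above the highest WT value by less than the spread within WT. With only the IL-33 groups in the fit, 1 of the 10 factors had an unadjusted p under 0.05. This was *Tcf7*, with a log2 fold change of 0.48, a SE of 0.12, an unadjusted p of 0.00620 and an adjusted p of 0.378 (0.376 to 1 over the alternatives). With array weights it was again the 1 factor under 0.05, at an unadjusted p of 0.0179. In that fit 1085 of all genes tested had an unadjusted p under 0.05, and 55 were called. The fit of only the IL-33 groups called 0 genes in all, with 1050 at an unadjusted p under 0.05. The other 7 factors overlapped between the genotypes. *Ets1* was nearly level, with a WT mean of 204 ± 28.4 FPKM (SD, n = 3) and a *Sema6d*-/- mean of 212 ± 4.22 FPKM (SD, n = 3).

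Some markers of other cells also separated the genotypes under IL-33. The 10 macrophage and monocyte markers summed to 1.97, 7.46 and 0.815 FPKM in WT and 10.3, 33.9 and 62.0 FPKM in *Sema6d*-/- libraries. Their most abundant gene, *Lyz2*, was at 0.724, 3.93 and 0.720 FPKM in WT and 5.404, 22.2 and 57.9 FPKM in *Sema6d*-/- libraries. The sum of the T cell markers differed in the opposite direction, at 488, 423 and 530 FPKM in WT and 304, 397 and 367 FPKM in *Sema6d*-/- libraries. Of these markers only *Lck* was without overlap, at 148 to 205 FPKM in WT and 94.9 to 109 FPKM in *Sema6d*-/- libraries. *Cd3g* overlapped, at 267 to 312 and 202 to 276 FPKM, as did the rest of the list. The means of *Cd28* and *Cd3d* were higher in *Sema6d*-/- libraries, at 8.40 against 6.86 FPKM and 1.48 against 0.757 FPKM. F4/80 and CD3ε were among the lineage antibodies of the sort, and the part of these cells in the genotype differences of *Rora*, *Tcf7* and *Id3* was not tested.

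Under PBS limma called 0 of the 10 factors, with 3 (*Id3*, *Zbtb16* and *Gfi1*) at an unadjusted p under 0.05, where 0.579% of all genes tested were called and 12.9% had an unadjusted p under 0.05. The groups did not overlap for *Bcl11b*, *Id3*, *Tox* and *Zbtb16*, 4 of the 10 factors, against 8.63% of all genes. *Zbtb16* and *Tox* were the higher in *Sema6d*-/- libraries, with log2 fold changes of 1.48 (SE 0.43, adjusted p = 0.209) and 0.72 (SE 0.35, adjusted p = 0.421). *Bcl11b* was the lower, at 21.5, 25.0 and 23.8 FPKM against 32.2, 26.9 and 28.1 FPKM in WT, which is −0.30 on the log2 scale (SE 0.26, adjusted p = 0.645). *Gfi1* had a log2 fold change of 1.49 (SE 0.55, adjusted p = 0.293), which passed only without WT PBS replicate 1 (2.22, adjusted p = 0.0388, the lowest of a range up to 0.892). With only the PBS groups in the fit, 1 gene was called in place of 66 over all genes tested, and 520 in place of 1475 had an unadjusted p under 0.05. Of the factors, *Zbtb16* and *Id3* then had unadjusted p-values of 0.00851 and 0.0265 (limma, adjusted p = 0.830 and 0.847). *Gfi1* was no longer under 0.05, at 0.0940. The log2 fold changes of the factors were the same in both fits, and only their errors and p-values differed.

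*Gata3*, *Id2*, *Rora* and *Ets1*, the 4 most abundant factors, had log2 fold changes between the genotypes under PBS of 0.03, −0.04, −0.08 and −0.12, with SEs of 0.21, 0.19, 0.28 and 0.18. With only the PBS groups in the fit the SEs were 0.26, 0.26, 0.34 and 0.18. The direction of each fold change turned when a single PBS library was left out. With all 4 groups in the fit, the confidence intervals ran from −0.44 to 0.49 for *Gata3*, −0.45 to 0.37 for *Id2*, −0.68 to 0.52 for *Rora* and −0.50 to 0.26 for *Ets1*, so smaller differences could not be seen. Averaged over the treatments, limma called 0 of the 10 factors, with 2 (*Id3* and *Zbtb16*) at an unadjusted p under 0.05, next to 0.123% of all genes called and 7.08% at an unadjusted p under 0.05. The lowest adjusted p of a factor there was 0.559, for *Zbtb16*, but without *Sema6d*-/- PBS replicate 2 *Id3* was called (−1.93, adjusted p = 0.0440).

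*Id3*, the second ID protein gene of the list, had the widest spread. In WT libraries it was at 25.5, 34.1 and 15.5 FPKM under PBS and 6.13, 13.1 and 12.96 FPKM under IL-33. In *Sema6d*-/- libraries it was listed at 0, 10.7 and 0 FPKM under PBS and was at 15.4, 18.8 and 20.6 FPKM under IL-33. WT values were lower under IL-33 and *Sema6d*-/- values higher, without overlap in either genotype, a pattern shared by 29 of the genes tested (0.254%), while 42 genes showed the reverse. The value of 10.7 FPKM corresponds to about 81 reads. The log2 fold change with IL-33 was −1.15 in WT (SE 0.81, adjusted p = 0.521) and 3.08 in *Sema6d*-/- ILC2s (SE 0.81, adjusted p = 0.0707), and that between the genotypes under PBS was −3.46 (SE 0.81, adjusted p = 0.109). The interaction was 4.23 (SE 1.15, adjusted p = 0.591). The exact permutation test for this single gene gave p = 0.005, the smallest possible, which follows from the lack of overlap in opposite directions. Its null was no genotype difference under either treatment, not equal responses to IL-33. limma called 0 of the 10 factors for the interaction, with *Id3* the 1 factor at an unadjusted p under 0.05, beside 0.0176% of all genes called and 5.57% at an unadjusted p under 0.05.

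Whether *Id3* passed the threshold depended on 1 library and on which groups were in the fit, while its direction was the same under every alternative run in each comparison. Without *Sema6d*-/- PBS replicate 2, the library with the value of 10.7 FPKM, the *Sema6d*-/- response was 4.26 (adjusted p = 0.00209), the difference under PBS −4.64 (adjusted p = 0.00414), the interaction 5.41 (adjusted p = 0.0259) and the averaged IL-33 response 1.55 (adjusted p = 0.0125, against 0.96 and 0.357 with all libraries). With only the groups compared and all their libraries, the adjusted p of *Id3* was 0.236 for the *Sema6d*-/- response and 0.847 under PBS. With only the groups compared and without that library, an alternative chosen after seeing the data, it was 0.0446 and 0.536. Over all alternatives the adjusted p ranged from 0.00209 to 0.236 for the *Sema6d*-/- response, from 0.00414 to 0.847 under PBS and from 0.0259 to 0.995 for the interaction.

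That library also stood apart in markers of other cells. The 7 NK cell and ILC1 markers summed to 768 FPKM in *Sema6d*-/- PBS replicate 2, led by *Gzma* at 653 FPKM with *Ncr1* at 58.9 FPKM, and to at most 40.2 FPKM in any other library. The 10 macrophage and monocyte markers summed to 184 FPKM there, led by *Lyz2* at 112 FPKM, and to at most 17.1 FPKM in any other PBS library. *Ear2*, *Itgam*, *Marco* and *Fcgr1* were at 39.7, 10.4, 7.28 and 5.25 FPKM in that library. By contrast *Adgre1*, the gene of F4/80, *Csf1r* and *Cd68* were listed at 0 in it. The same library had the lowest value of its group for 7 of the 10 factors, *Gata3*, *Rora*, *Tcf7*, *Gfi1*, *Id2*, *Ets1* and *Tox*, the last by a narrow margin. NK1.1 and F4/80 were among the antibodies by which NK cells and macrophages were to be removed in the sort. The part of these cells in the *Id3* values and in these low values was not tested.

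In the other lists this library gave the highest sum for granulocyte and mast cell, endothelial and mesenchymal markers, close to those of other libraries for all but the last. The 10 T cell markers summed to 287 to 530 FPKM, led by *Cd3g* at 190 to 480 FPKM. Of B cell markers *Cd79b* was the most abundant, with *Ms4a1* and *Pax5* at 0 in all libraries. In WT *Cd79b* was higher under IL-33 without overlap, at 26.8, 14.4 and 11.97 FPKM against 0, 0.139 and 0 FPKM under PBS, and in *Sema6d*-/- libraries it reached at most 18.4 FPKM, with overlap. Of 10 granulocyte and mast cell markers 9 were listed, summing to 17.8 to 89.3 FPKM, nearly all from *Cpa3*, with *S100a8*, *S100a9*, *Epx*, *Prg2* and *Mcpt8* at 0. *Cpa3* moved with treatment, at 42.9 to 89.3 FPKM in the 6 PBS and 17.8 to 40.0 FPKM in the 6 IL-33 libraries. The 6 epithelial markers summed to at most 54.0 FPKM, except for 101 FPKM in *Sema6d*-/- IL-33 replicate 3, where *Sftpc* was at 97.2 FPKM. *Epcam*, the most abundant of them on average, was higher in the 6 PBS libraries, at 16.4 to 54.0 FPKM, than in the 6 IL-33 libraries, at 0 to 8.71 FPKM. The other 5 did not share this separation, and 2 of them ran the other way in 1 genotype. *Sftpc* was higher under IL-33 in WT without overlap, at 1.03 to 8.56 FPKM against 0 in the PBS libraries. *Cdh1* was higher under IL-33 in *Sema6d*-/- libraries without overlap, at 2.72 to 4.26 FPKM against at most 2.36 FPKM. *Krt18*, *Scgb1a1* and *Sftpb* overlapped between the treatments in both genotypes. The part of these cells in the IL-33 responses of the factors was not tested. The 5 endothelial markers summed to 1.32 to 23.1 FPKM, with *Pecam1* the most abundant on average, and the 6 mesenchymal markers to at most 4.51 FPKM, with *Col3a1* the most abundant on average. Without both *Sema6d*-/- PBS replicate 2 and *Sema6d*-/- IL-33 replicate 3, an alternative chosen after seeing the data, the *Sema6d*-/- response of *Tcf7* was 1.45 on the log2 scale (adjusted p = 0.0942, against 1.77 and 0.0139 with all libraries), and 208 genes in place of 324 were called there.

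Ratios within a library show how the balance of factors shifted without reference to other libraries. *Gata3* exceeded *Tcf7* 32.2, 45.5 and 19.9-fold in the WT PBS and 32.0, 24.9 and 15.3-fold in the *Sema6d*-/- PBS libraries. Under IL-33 the ratio was 6.06, 6.71 and 6.11 in WT, next to 5.29, 4.94 and 5.04 in *Sema6d*-/- libraries. All 6 IL-33 ratios lay below all 6 PBS ratios. *Id2* to *Gata3* was likewise apart, at 3.58 to 5.52 in the 6 PBS and 7.13 to 9.32 in the 6 IL-33 libraries. *Gata3* to *Rora* overlapped between the treatments in WT, at 2.02, 3.30 and 2.03 under PBS and 2.26, 2.103 and 1.82 under IL-33. In *Sema6d*-/- libraries it was lower under IL-33 without overlap, at 2.99, 2.72 and 2.07 under PBS and 1.92, 1.73 and 1.86 under IL-33. *Id2* exceeded *Id3* by 75.3-fold to 383-fold in the 10 libraries in which *Id3* was above 0.

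The E proteins that ID2 and ID3 bind, together with the ID family, made a list of 7 genes, all of them tested. The list includes *Id2* and *Id3*, so it partly repeats the factors above. limma called 0 of the 7 in every comparison, with 2 at an unadjusted p under 0.05 for IL-33 in WT and 3 in *Sema6d*-/- ILC2s (17.6% and 15.2% of all genes tested), and the list's median log2 fold change was 0.25 and 0.44. The 3 in *Sema6d*-/- ILC2s included *Id2* and *Id3*, and the median in WT was the value of *Id2* itself. *Tcf12*, which encodes HEB and had the highest median of the E protein genes in both PBS groups, was at 13.4, 7.17 and 10.9 FPKM in WT PBS, 49.6, 14.3 and 37.5 FPKM in *Sema6d*-/- PBS, 10.6, 17.2 and 13.4 FPKM in WT IL-33 and 8.92, 19.7 and 11.3 FPKM in *Sema6d*-/- IL-33 libraries. Its highest values came from *Sema6d*-/- PBS replicates 1 and 3. Under IL-33 *Tcf3*, which encodes E2A, had the higher median, 15.7 FPKM against 13.4 FPKM for *Tcf12* in WT and 14.0 FPKM against 11.3 FPKM in *Sema6d*-/- libraries, but the values of the pair overlapped. Per unit length *Tcf12* lay far below *Id2* in each library.

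Among 18 close relatives of the factors, 10 passed the minimum. In WT 1 rose and 1 fell with IL-33, in *Sema6d*-/- ILC2s 1 rose, where 4.27% and 2.84% of all genes tested were called. The median log2 fold changes of the list were 0.14 and 0.26, against 0.16 and 0.14 over all genes. *Tox2*, a paralog of *Tox*, had PBS values of 0, 0 and 1.32 FPKM in WT and 0, 1.94 and 0 FPKM in *Sema6d*-/- libraries. Under IL-33 it was at 13.3, 6.13 and 15.0 FPKM in WT and 15.3, 22.7 and 13.6 FPKM in *Sema6d*-/- libraries. It rose in both genotypes, with log2 fold changes of 3.16 (SE 0.60, adjusted p = 0.0121) and 3.64 (SE 0.60, adjusted p = 0.00871). *Ets2*, a paralog of *Ets1*, fell in WT from 97.8, 73.8 and 92.3 FPKM to 23.9, 31.2 and 40.4 FPKM (log2 fold change −1.46, SE 0.28, adjusted p = 0.0118), and the averaged change was −1.09 (adjusted p = 0.00445).

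All 21 other regulators of ILC development were tested. With IL-33, 2 fell in WT, 2 rose and 1 fell in *Sema6d*-/- ILC2s, and 2 rose and 3 fell in the average, beside 4.27%, 2.84% and 8.82% of all genes called. The list medians were −0.17, 0.27 and 0.03, against 0.16, 0.14 and 0.16 over all genes. *Hes1*, a target of Notch signalling, fell in both genotypes, by 0.84 (SE 0.20, adjusted p = 0.0357) and by 1.02 (SE 0.20, adjusted p = 0.0195) on the log2 scale. Its 6 IL-33 values, 110 to 189 FPKM, lay below its 6 PBS values, 251 to 337 FPKM. *Nfil3*, which acts upstream of *Id2* in ILC progenitors, rose in *Sema6d*-/- ILC2s from 124, 80.7 and 69.4 FPKM to 174, 228 and 175 FPKM (log2 fold change 1.10, adjusted p = 0.0317), and the averaged change was 0.85 (adjusted p = 0.00877). *Myb* rose in *Sema6d*-/- ILC2s from 0 in the 3 PBS libraries to 2.93, 1.26 and 2.48 FPKM (adjusted p = 0.0392), and *Bach2*, a repressor of effector differentiation, fell in the average by 1.22 (SE 0.33, adjusted p = 0.0384). *Zfp36l2*, which encodes an RNA-binding protein that destabilizes transcripts, fell by 0.92 in WT (SE 0.23, adjusted p = 0.0446).

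Of 11 factors that specify other lineages, 4 passed the minimum, and limma called 0 of them in any comparison, with 0 at an unadjusted p under 0.05 for IL-33 in WT and 1 in *Sema6d*-/- ILC2s, against the same 17.6% and 15.2% of all genes. *Ahr* was the most abundant in the median of WT IL-33 libraries, at 7.84, 12.97 and 9.15 FPKM. *Tbx21*, the regulator of ILC1s and NK cells, was at 0, 9.40 and 4.70 FPKM in *Sema6d*-/- PBS libraries and at most 0.521 FPKM elsewhere, and its highest value came from the library with the high NK cell markers.

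Among 12 ILC2 effector and receptor genes 11 were tested. With IL-33, 1 rose and 2 fell in WT, 3 fell in *Sema6d*-/- ILC2s, and 2 rose and 5 fell in the average, next to the same 4.27%, 2.84% and 8.82% of all genes called. The medians of the list were −0.26, −0.63 and −0.52, those of all genes 0.16, 0.14 and 0.16. *Il2ra*, which encodes the IL-2 receptor α chain, fell from 96.2, 122 and 112 FPKM to 19.0, 27.7 and 25.6 FPKM in WT (log2 fold change −2.16, SE 0.25, adjusted p = 0.000665) and by 1.57 on the log2 scale in *Sema6d*-/- ILC2s (SE 0.25, adjusted p = 0.00666). *Klrg1*, an inhibitory receptor of mature ILC2s, rose in WT from 349, 141 and 309 FPKM to 563, 541 and 595 FPKM (log2 fold change 1.19, adjusted p = 0.0318). *Ccr8*, a chemokine receptor, fell by 0.88 and 0.90 on the log2 scale in WT and *Sema6d*-/- ILC2s (SE 0.16 in each, adjusted p = 0.00975 and 0.0116). *Il5* fell in *Sema6d*-/- ILC2s by 1.11 (SE 0.26, adjusted p = 0.0455). *Il13* rose in the average by 2.22 (SE 0.63, adjusted p = 0.0499). For these 5 lists limma called 0 genes between the genotypes under PBS, under IL-33 or averaged, and 0 for the interaction. Genes at an unadjusted p under 0.05 are given in the order of the lists above. Under PBS they were 3 of 7, 2 of 10, 1 of 21, 1 of 4 and 3 of 11 (12.9% of all genes tested). Under IL-33 they were 0, 0, 1, 0 and 1 (1.83%), and averaged 1, 0, 0, 0 and 1 (7.08%). For the interaction they were 2, 0, 0, 1 and 0 (5.57%). *Id3* was among those of the first list under PBS, averaged and for the interaction.

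The 10 genes lie on 6 chromosomes of GRCm38 (GENCODE vM21), with *Rora*, *Ets1* and *Zbtb16* on chromosome 9, *Id3* and *Tox* on chromosome 4 and *Id2* and *Bcl11b* on chromosome 12, each well apart. *Tcf7* spans 52252371 to 52283014 on chromosome 11, *Tox* 6686353 to 6991557 and *Id3* 136143497 to 136145755 on chromosome 4, *Gata3* 9857078 to 9890034 on chromosome 2 and *Zbtb16* 48654297 to 48836222 on chromosome 9. Exons of *Gata3*, *Rora*, *Gfi1* and *Tox* share 93, 82, 19 and 260 bases with genes on the other strand that the files do not list, and reads there could not be assigned to a strand from FPKM.

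RefSeq promoters (GRCm38.p6) were at hand for 7 of the 10 genes, as 9 windows of 250 bases before a start, with none for *Ets1*, *Tox* or *Zbtb16*. They were searched on both strands for the motifs that factors of these families are known to bind. The E-box CANNTG, which E proteins bind, occurred in 4 of the 9 windows, in both *Gfi1* promoters, 1 of the 2 *Tcf7* promoters and the *Id2* promoter, against 66.2% of all 32851 promoters. AGGTCA, the core site of ROR receptors, and CCGGAAG, bound by ETS factors, occurred in the other *Tcf7* promoter, and CTTTGA, bound by TCF factors, in that of *Bcl11b*, against 14.0%, 6.91% and 13.8% of all promoters. AGATAA, bound by GATA factors, occurred in 0 of the 9 windows, against 9.99%. The *Gata3* and *Id3* windows and 1 of the *Gfi1* windows lie wholly within GENCODE exons, and others reach into them. The *Id3* window, from 136143572, begins after the GENCODE start of *Id3* given above. A match describes letters only.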

How the data were processed

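RNA-seq libraries of sorted lung ILC2s were compared, 3 in each of 4 groups, with groups and replicates taken from the labels. The authors deposited FPKM (normalized for gene length and library size) with 1 value per gene symbol and library. Per the processing notes, 75-base single-end reads were mapped to mm10 with TopHat2 2.1.1 and Bowtie2, and FPKM came from Cuffdiff 2.2.1, while the methods name another TopHat version and Cuffnorm. The annotation is not stated in the sources used here. The labels name SMART-Seq HT and Nextera kits and the methods name TruSeq Stranded. Median-ratio size factors of the deposited values were 1.04 to 1.05, so no further scaling was applied.

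The 10 factors and all gene and marker lists were chosen with earlier results of these data known. limma 3.58.1 in R 4.3.3 fitted the 4 group means to log2(FPKM + 1) over the 11395 of 24346 genes averaging 0.5 FPKM or more (lmFit, eBayes with a trend, 8 residual degrees of freedom, two-sided tests, Benjamini-Hochberg adjustment over all genes tested). Single genes were also compared by two-sided exact permutation tests, over 20 assignments for 3 libraries against 3 and over 400 within genotypes or treatments. For the interaction, genotypes were exchanged within each treatment, so a small p there does not separate an interaction from a genotype difference. Tables and permutations used Python 3.11.15 with pandas 2.3.3, numpy 2.4.6 and scipy 1.17.1, and figures used matplotlib 3.10.9. The code was tested on simulated data.

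All 10 factors are described. From each other list, up to 4 called genes per comparison with the largest change were named or, with none called, up to 3 with the highest mean. The most abundant gene of each list of markers of other cells and markers at 0 in all libraries were named. Other genes, such as *Ncr1*, *Sftpc*, *Thy1*, *Lck*, *Cd28*, *Cd3e*, *Cd5*, *Cd8a*, *Tcf3* and *Sema6d*, were chosen after their values were seen. Genes nearest to a factor had the smallest root mean square distance between log2(FPKM + 1) values, each centred on its mean over the 12 libraries.

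Depth was estimated from the value of a single read in genes with 1 transcript, and read numbers assume fragments of 200 bases. FPKM carry no counting intervals. The alternatives were quantile normalization, median-ratio scaling, a pseudocount of 0.1, a minimum mean of 2 FPKM or none, array weights, eBayes with no trend, only the groups compared, a block for replicate number, and each library left out in turn. Replicate numbers do not pair libraries: over 18 pairs of groups' replicates, r was −0.0468 to 0.0448.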

Additional observations from a re-analysis of the deposited data

Results flagged for a closer look

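*Id3* was flagged because its values moved in opposite directions with IL-33. All WT values were lower and all *Sema6d*-/- values higher under IL-33 than under PBS. The interaction was 4.23 on the log2(FPKM + 1) scale and was not called (adjusted p = 0.591, limma). The exact permutation p was 0.005, the smallest that 400 assignments allow. That test exchanged genotypes within each treatment, so its null was no genotype difference under either treatment, not equal responses. Its p also follows from the lack of overlap between the groups, so it adds no separate evidence of an interaction. In the *Sema6d*-/- PBS libraries *Id3* was listed at 0, 10.7 and 0 FPKM. Of 1808 genes with a mean of 10 to 20 FPKM over all PBS libraries, 191, 40 and 68 were listed at 0 in these 3 libraries. NK cell and ILC1 markers summed to 768 FPKM in the second of them and to 0 and 4.70 FPKM in the others. NK1.1 was among the lineage antibodies listed for the sort. The part of depth and of other cells in the *Id3* values was not tested. Without the second library the interaction was 5.41, with an adjusted p of 0.0259, the 1 alternative of 21 in which limma called it, within a range of 0.0259 to 0.995. Without that library and *Sema6d*-/- IL-33 replicate 3, an alternative chosen after seeing the data, it was 5.32 (adjusted p = 0.146).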

How the results depend on the processing

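Of 1523 values of the 10 factors over 21 planned settings and 2 settings chosen after seeing the data, 1457 kept their direction and their side of the threshold, 6 lost a call, 18 gained one and 42 turned direction. With the replicate block all 70 values kept both. The cause of the changes given here was not tested. The 2 doubted libraries are *Sema6d*-/- PBS replicate 2 and *Sema6d*-/- IL-33 replicate 3, whose markers of other cells stood apart.

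Settings moved the number of genes called. Array weights gave 55 genes between the genotypes under IL-33 and 1 under PBS. Only the groups compared gave 0 and 1, and 0 under PBS when *Sema6d*-/- PBS replicate 2 was also removed. No filter gave 33 under PBS and 9 for the averaged genotypes, quantile normalization 0 under IL-33 and 36 under PBS, a pseudocount of 0.1 gave 2 under IL-33 and 5 for the interaction, eBayes without the trend 7 for the interaction, and the replicate block 15 under PBS and 1 for the interaction. Without both doubted libraries, 208 genes were called for IL-33 in *Sema6d*-/- ILC2s. Quantile normalization shifted the median log2 fold change with IL-33 to −0.04 in WT and −0.02 in *Sema6d*-/- ILC2s and gave 248 higher and 231 lower genes in WT, 136 and 134 in *Sema6d*-/- ILC2s and 521 and 506 in the average, in place of 303 and 183, 199 and 125, and 655 and 350.

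With 1 library left out, 202 to 691 genes were called for IL-33 in WT, 122 to 476 in *Sema6d*-/- ILC2s, 660 to 1244 in the average, 0 to 3 between the genotypes under IL-33, 20 to 213 under PBS, 7 to 44 averaged and 0 to 25 for the interaction. Of the factors, 0 to 2 were called for IL-33 in each genotype, 1 to 3 in the average and 0 to 1 between the genotypes under PBS or averaged and for the interaction. Quantile normalization called 2 factors for IL-33 in *Sema6d*-/- ILC2s and 3 in the average, beside 270 and 1027 of all genes tested. Without both doubted libraries 1 factor was called under PBS and 2 for IL-33 in the average, beside 98 and 894 of all genes. With only the groups compared and *Sema6d*-/- PBS replicate 2 removed, 2 factors were called for IL-33 in *Sema6d*-/- ILC2s, beside 377 of all genes.

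Directions that turned belonged to small log2 fold changes without a call. Under PBS the genotype difference of *Gata3* was −0.027 with array weights and that of *Id2* 0.036 with quantile normalization. Without both doubted libraries, those of *Rora*, *Id2* and *Ets1* under PBS were 0.15, 0.15 and 0.016, that of *Ets1* averaged 0.047, the *Sema6d*-/- IL-33 response of *Rora* −0.17, and the interactions of *Gata3* and *Tcf7* −0.10 and −0.25. With only the groups compared and *Sema6d*-/- PBS replicate 2 removed, *Rora*, *Id2* and *Ets1* under PBS were at 0.15, 0.15 and 0.016 and the *Sema6d*-/- response of *Rora* at −0.11.

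With 1 library left out, genotype differences under PBS ran from −0.21 to 0.22 for *Gata3*, −0.29 to 0.15 for *Id2*, −0.35 to 0.18 for *Rora* and −0.24 to 0.016 for *Ets1*. Under IL-33 they ran from −0.077 to 0.19 for *Bcl11b*, −0.053 to 0.15 for *Ets1* and −0.27 to 0.082 for *Tox*, and averaged from −0.088 to 0.039 for *Ets1*, −0.012 to 0.20 for *Gata3*, −0.041 to 0.18 for *Id2* and −0.0014 to 0.26 for *Rora*. The IL-33 response of *Gfi1* ran from −0.38 to 1.04 in WT and −0.68 to 0.031 in the average, and that of *Rora* from −0.11 to 0.25 in *Sema6d*-/- ILC2s and −0.22 to 0.037 in the average. The interaction ran from −0.030 to 0.40 for *Gata3* and −0.17 to 0.36 for *Tcf7*.

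*Id3* was listed at 0 in *Sema6d*-/- PBS replicates 1 and 3, whose relative depth was 0.843 and 0.9996. There 1 read of *Id3* corresponds to 0.135 and 0.114 FPKM. *Zbtb16* was listed at 0 in WT PBS replicate 2 and WT IL-33 replicate 3, with relative depth of 0.891 and 1. Quantile normalization gave an averaged IL-33 response of −1.24 for *Zbtb16* (adjusted p = 0.0262, limma). The part of depth and of the many genes listed at 0 in PBS libraries in these values was not tested.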

Other observations

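Genes whose values followed a factor most closely over the 12 libraries were found by the distance between centred log2(FPKM + 1) profiles, a description of likeness only. The 3 nearest to *Gata3* were *Hilpda*, *Srsf2* and *Irf2bp2*, at root mean square distances of 0.11, 0.12 and 0.13, where *Gata3* itself had a root mean square spread of 0.32. *Hilpda*, which encodes a lipid droplet protein, had group medians of 2617 FPKM in WT PBS, 2323 FPKM in *Sema6d*-/- PBS, 1994 FPKM in WT IL-33 and 1849 FPKM in *Sema6d*-/- IL-33 libraries. *Srsf2*, which encodes a splicing factor, had 175, 183, 115 and 140 FPKM in the same order.

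The gene nearest to *Id3* was *Mir22hg*, the host transcript of a microRNA, at a distance of 0.38 where the spread of *Id3* was 1.62. Its group medians were 27.5 FPKM in WT PBS, 0.629 FPKM in *Sema6d*-/- PBS, 12.5 FPKM in WT IL-33 and 17.1 FPKM in *Sema6d*-/- IL-33 libraries. *Tcf7* lay nearest to *Arhgap39* (0.29), *Tox* to *Map4k1* (0.23), *Gfi1* to *Atf7* (0.26), *Zbtb16* to *Tanc1* (0.36), *Ets1* to *4930523C07Rik* (0.10), *Rora* to *M6pr* (0.14), *Id2* to *Pdcd6ip* (0.13) and *Bcl11b* to *Atxn7l1os2* (0.11). *Map4k1*, a kinase of antigen receptor signalling, had group medians of 22.0 and 26.8 FPKM in WT and *Sema6d*-/- PBS and 46.6 and 41.5 FPKM in WT and *Sema6d*-/- IL-33 libraries.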
